A study of Mus musculus with 11 samples.

Results

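The proteasome was examined through 34 subunit genes, chosen by name from the known composition of the complex, with earlier results of these data known: the alpha ring (Psma1 to Psma7), the constitutive beta ring (Psmb1 to Psmb7), the inducible immunoproteasome subunits (Psmb8, Psmb9 and Psmb10), the ATPase ring (Psmc1 to Psmc6) and 11 genes of the lid and base (Psmd1, Psmd2, Psmd3, Psmd4, Psmd6, Psmd7, Psmd8, Psmd11, Psmd12, Psmd13 and Psmd14). All 34 were found by symbol among the 53700 gene identifiers counted, and all 34 were among the 17626 genes tested. RNA came from cortex of 5xFAD females at an age of 8 months, strain C57BL/6 in the labels, which carry transgenes driven by the neuronal Thy1 promoter and deposit amyloid in the brain. In 6 mice both copies of Abi3 were present (genotype 5xFAD; Abi3 WT, here Abi3_WT), and in 5 mice Abi3 was deleted with a KOMP definitive-null allele made in C57BL/6N (5xFAD; Abi3 KO, here Abi3_KO). Every animal of both groups therefore carried the transgenes, and the study's methods add that the mice were heterozygous for a Trem2 variant of the SJL background. There were no mice without the transgenes, so the comparison is between genotypes within amyloid-bearing cortex.

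The proteasome is the cell's main machine for degrading proteins tagged with ubiquitin. Its core is a barrel in which outer alpha rings gate entry to inner beta rings that hold the proteolytic sites, and a regulatory particle on the barrel's ends recognises ubiquitin, removes it and unfolds the substrate with a ring of ATPases. Interferon-gamma induces alternative catalytic subunits that replace the constitutive ones and shift the peptides produced towards those loaded on MHC class I, and in the brain this immunoproteasome is associated mainly with glia. When proteasome activity is short, the transcription factor encoded by Nfe2l1 raises the subunit genes together through antioxidant response elements.

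The tissue and the labels were checked first. Libraries held 3202310 to 5501958 reads in genes. The deleted gene, Abi3, was read 10 to 38 times per Abi3_WT library and 0 to 2 times per Abi3_KO library, with no read in 4 of the 5 (exact permutation test of normalized counts, two-sided, p = 0.00433). The summed neuron markers (12 genes) stood at 6802 to 7899 CPM (counts scaled to a fixed library total of reads in genes) in Abi3_WT and 6956 to 8177 in Abi3_KO, those of astrocytes (9 genes) at 4230 to 4896 and 4067 to 4688, of oligodendrocytes (8 genes) at 2086 to 2819 and 2147 to 3039, of microglia (12 genes) at 650 to 874 and 705 to 981, and of endothelium (7 genes) at 205 to 278 and 235 to 264. Of the 7 T cell markers, 5 had a mean normalized count under 1.5, and their sum was 1.17 to 8.72 CPM in Abi3_WT and 2.54 to 7.41 CPM in Abi3_KO. Of all these markers, DESeq2 called Cldn11 of the oligodendrocyte list higher and Slc4a4 of the astrocyte list lower. Over all genes tested, 0.539% were called in either direction. In bulk cortex, fewer cells of a type and less RNA per cell cannot be told apart. The libraries differed in composition: for every 100 reads in genes, Abi3_WT libraries had 65.9 ± 3.67 reads outside genes (SD, n = 6) and Abi3_KO libraries 54.0 ± 4.99 (SD, n = 5) (exact permutation test, two-sided, p = 0.00649, 0.0195 after Benjamini-Hochberg adjustment over 3 library measures), and only Abi3_KO replicate 4, at 62.5, lay within the Abi3_WT range of 59.3 to 68.8. Genes with a count numbered 18445 ± 345 (SD, n = 6) and 17785 ± 243 (SD, n = 5) (exact permutation test, two-sided, p = 0.013, adjusted 0.0195), and the total of reads in genes had p = 0.152 in the same exact permutation test.

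Across the complex the subunit transcripts differed little between the genotypes, with Psmb1 as the exception in DESeq2. Normalized counts below are counts divided by DESeq2's size factor of the library, and every fold change is Abi3_KO against Abi3_WT. Of the 34 subunits, 1 passed an adjusted p of 0.05 (DESeq2, Benjamini-Hochberg over all genes), in the higher direction, where 0.34% of all genes tested were called higher and 0.539% were called in either direction. None was called lower, and none had an unadjusted DESeq2 p under 0.05 in the lower direction. An unadjusted p under 0.05 in the higher direction was found for 3 subunits (Psmb1, Psmb4 and Psmd14), against 4.14% of all genes. The groups did not overlap for 1 subunit, Psmb1, and 0.539% of all genes had groups that did not overlap with Abi3_KO higher.

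The log2 fold changes were small and mostly above 0. They ranged from -0.26 for Psmb2 to 0.46 for Psmb5, with standard errors of 0.080 to 0.459, and 26 of the 34 (76.5%) were above 0, against 49.5% of all genes tested. Their median was 0.12, against -0.0033 over all genes tested and 0.0058 over the 12902 genes that averaged 10 or more normalized counts, and it was 0.0027, with 17 of 34 above 0, with reads outside genes as a covariate. By place in the complex the median was 0.03 in the alpha ring, 0.24 in the beta ring, 0.16 in the immunoproteasome, 0.05 in the ATPase ring and 0.15 in the lid and base. Over the same animals the microglia markers had a median log2 fold change of 0.18 and the oligodendrocyte markers one of 0.21, with 10 of 12 and 8 of 8 above 0, and the neuron markers one of 0.06, while the astrocyte markers had -0.11, with 7 of 9 below 0, and the endothelial markers -0.07. The part of these cells in the subunits' values was not tested. For 33 subunits the 95% interval lay inside a 2-fold change in either direction, and for 27 it lay inside 1.5-fold. Psmb8 was the only subunit whose interval reached 2-fold. DESeq2's filter on mean counts gave 30 subunits an adjusted p and withheld it from Psma5, Psmb5, Psmb8 and Psmb9. After Psmb1, the lowest adjusted p of the list was 0.361, for Psmd14.

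**Figure D1:**
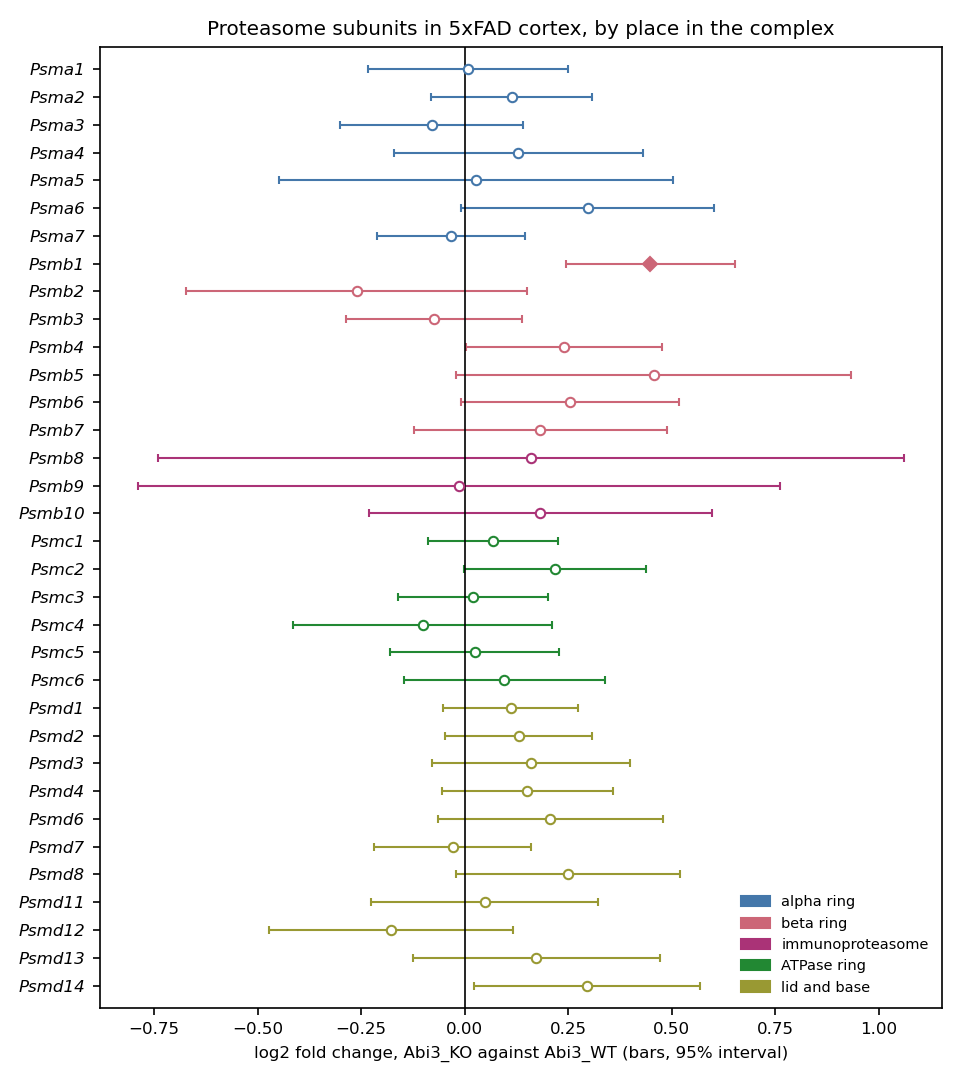
DESeq2 log2 fold change of each of the 34 subunits (x axis, Abi3_KO against Abi3_WT) with its 95% interval (bars), ordered by place in the complex (colours). The filled diamond marks Psmb1, at 0.45 the only subunit past the adjusted threshold, and open circles mark the others, whose values run from -0.26 to 0.46.

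Psmb1 (ENSMUSG00000014769), on the minus strand of chromosome 17 from 15691080 to 15720013 in GRCm39, encodes a structural subunit of the beta ring that has no active site of its own. Its normalized count was 231 at the lowest, 285 at the median and 319 at the highest of the 6 Abi3_WT animals, and 366, 373, 405, 384 and 381 in Abi3_KO replicates 1 to 5. All 5 Abi3_KO animals lay above the highest Abi3_WT animal, and they were close to one another. The means were 279.5 ± 36.0 (SD, n = 6) and 382 ± 14.7 (SD, n = 5), which is 1.36-fold or 0.45 on the log2 scale (SE 0.10), with a DESeq2 adjusted p of 0.00651. Leaving out each animal in turn, the gene passed in all 11 fits, with DESeq2 adjusted p-values of 0.000755 to 0.0273. It did not pass with edgeR (adjusted p 0.056) or limma (0.0718), whose log2 fold changes were 0.44 and 0.45, and with reads outside genes as a covariate DESeq2 gave a log2 fold change of 0.51 with an unadjusted p of 0.0101 and no subunit past the adjusted threshold.

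The other structural beta subunits did not move as a block. Psmb4 had normalized counts of 279 to 431 in Abi3_WT with a median of 342, and 499, 393, 383, 332 and 449 in Abi3_KO. Abi3_KO replicates 1 and 5 exceeded every Abi3_WT animal, while the other 3 lay within the Abi3_WT range. This gave a log2 fold change of 0.24 (SE 0.12), with an unadjusted DESeq2 p of 0.0481 and an adjusted p of 0.415, and with reads outside genes as a covariate it was -0.087. Psmb2 had 61.6 to 123 normalized counts in Abi3_WT with a median of 95.2, and 80.7, 104, 91.9, 48.6 and 69.4 in Abi3_KO, the lowest of them below every Abi3_WT animal. The log2 fold change of Psmb2 was -0.26 (SE 0.21, DESeq2 adjusted p 0.67), or -0.38 to -0.13 without single animals, and Psmb3 stood at -0.07.

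**Figure D2:**
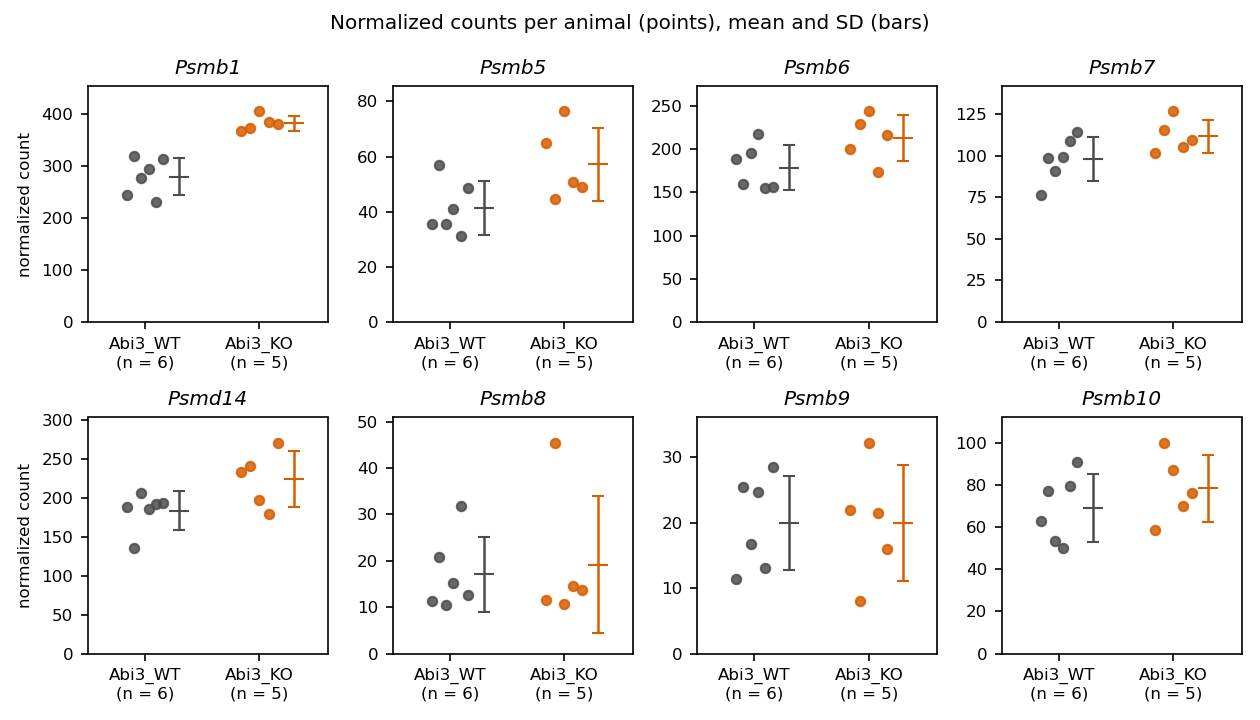
Normalized counts (y axis, from 0, a scale of its own in each panel) of Psmb1, the catalytic subunits and Psmd14 in each animal (points), with mean and SD (bars), for 6 Abi3_WT and 5 Abi3_KO mice. For Psmb1 the 5 Abi3_KO points lie above all Abi3_WT points, and in the other 7 panels the genotypes overlap.

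The proteolytic sites of the core are carried by Psmb5, Psmb6 and Psmb7, which cut after hydrophobic, acidic and basic residues, respectively, and which Psmb8, Psmb9 and Psmb10 replace in the immunoproteasome. The promoters of the first 2 exchange pairs are shown because each pair joins a constitutive gene to an interferon-inducible one. Each window runs from 250 bases before to 50 bases after the start RefSeq gives the gene, was taken from RefSeq's promoter table (GRCm38.p6) and lies in GRCm39 at chr14:54855403-54855702 (minus strand) for Psmb5, chr17:34416919-34417218 (plus strand) for Psmb8, chr11:70415933-70416232 (plus strand) for Psmb6 and chr17:34406255-34406554 (minus strand) for Psmb9. GENCODE places the outer start of Psmb5, Psmb8 and Psmb9 further upstream, so the Psmb8 and Psmb9 windows lie inside its gene bounds. Sequences read 5′ to 3′ along the gene, and capitals mark the motif found.
Psmb5: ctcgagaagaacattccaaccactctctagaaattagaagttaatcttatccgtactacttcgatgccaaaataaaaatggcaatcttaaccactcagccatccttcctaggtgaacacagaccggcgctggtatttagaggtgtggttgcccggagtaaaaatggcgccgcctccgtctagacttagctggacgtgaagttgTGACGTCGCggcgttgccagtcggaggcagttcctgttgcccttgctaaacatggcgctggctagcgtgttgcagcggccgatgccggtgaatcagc
Psmb8: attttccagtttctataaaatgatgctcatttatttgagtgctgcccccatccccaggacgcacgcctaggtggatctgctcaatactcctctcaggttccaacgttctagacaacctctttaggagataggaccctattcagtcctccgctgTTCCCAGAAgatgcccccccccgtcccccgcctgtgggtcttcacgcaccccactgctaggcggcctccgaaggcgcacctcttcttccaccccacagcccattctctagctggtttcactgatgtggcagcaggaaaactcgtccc
Psmb6: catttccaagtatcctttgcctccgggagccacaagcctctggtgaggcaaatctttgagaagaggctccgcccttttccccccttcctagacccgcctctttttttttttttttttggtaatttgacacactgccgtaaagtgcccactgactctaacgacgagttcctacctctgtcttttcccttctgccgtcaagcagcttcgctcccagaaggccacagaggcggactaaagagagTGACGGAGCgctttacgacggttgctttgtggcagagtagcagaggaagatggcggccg
Psmb9: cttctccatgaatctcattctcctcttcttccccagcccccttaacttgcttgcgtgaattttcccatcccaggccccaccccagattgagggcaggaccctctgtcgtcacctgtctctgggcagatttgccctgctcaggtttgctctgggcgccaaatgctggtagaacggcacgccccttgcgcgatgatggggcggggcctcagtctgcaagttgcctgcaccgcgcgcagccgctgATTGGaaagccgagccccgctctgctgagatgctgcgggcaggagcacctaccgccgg
The capitals are an antioxidant response element core (TGACNNNGC) in Psmb5 and in Psmb6, a gamma-activated site core (TTCNNNGAA) in Psmb8 and a CCAAT box in Psmb9, where it lies on the opposite strand. Both strands were searched for these motifs and for an interferon-stimulated response element core (GAAANNGAA), and in the 4 windows no match overlapped another. The table held 30 windows for 28 of the 34 subunits, and Psmb1, Psmb2, Psmb7, Psmc3, Psmd3 and Psmd7 had no entry. The antioxidant response element core was in 13.3% of the 30 windows and in 12.4% of the 32851 mouse windows of the table, the CCAAT box in 36.7% and 37.4%, the interferon-stimulated core in 13.3% and 8.56%, and the gamma-activated core in 6.67% and 8.3%. The subunits with the antioxidant response element core were Psmb5, Psmb6, Psmc6 and Psmd12, with log2 fold changes of 0.46, 0.25, 0.10 and -0.18. A match of letters is a description of the window and not evidence of binding.

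The constitutive catalytic subunits each had a higher mean in Abi3_KO, and none passed the test. Psmb5 had 31.1 to 56.9 normalized counts in Abi3_WT with a median of 38.2, and 65.0, 44.4, 76.4, 50.8 and 48.9 in Abi3_KO. Replicates 1 and 3 of Abi3_KO exceeded all Abi3_WT animals and the rest overlapped them. Its log2 fold change of 0.46 (SE 0.24) was the highest of the list but rested on 31 to 85 reads per animal, and DESeq2 gave it an unadjusted p of 0.0612 and no adjusted p, or 0.62 with the filter switched off. Psmb6 had 155 to 217 normalized counts in Abi3_WT with a median of 174, and 200.3, 229, 244, 174 and 216 in Abi3_KO, 2 of them above every Abi3_WT animal. The log2 fold change of Psmb6 was 0.25 (SE 0.13, DESeq2 adjusted p 0.444), and with reads outside genes as a covariate it was 0.04. Psmb7 had 76.5 to 114 normalized counts with a median of 98.6 in Abi3_WT, and 102, 115, 127, 105 and 109 in Abi3_KO, all above the Abi3_WT mean of 97.9. For Psmb7 the log2 fold change was 0.18 (SE 0.16, DESeq2 adjusted p 0.69).

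Of the immunoproteasome subunits, Psmb8 and Psmb9 had 45 reads or fewer in every animal and Psmb10 had 51 to 115, and no difference between genotypes was detectable for any of the 3 at this depth. Psmb8, the inducible counterpart of Psmb5, had 10.5 to 31.9 normalized counts in Abi3_WT with a median of 14.0, and 11.5, 45.5, 10.7, 14.7 and 13.7 in Abi3_KO. Abi3_KO replicate 2 stood alone, and the other 4 lay within the lower part of the Abi3_WT range. The log2 fold change was 0.16 with a 95% interval of -0.74 to 1.06, and without that animal it was -0.46. Psmb9, the counterpart of Psmb6, had 11.4 to 28.6 in Abi3_WT with a median of 20.7, and 22.0, 8.08, 32.2, 21.5 and 15.9 in Abi3_KO, so that the same replicate 2 was the lowest of all 11 animals. With these values the log2 fold change was -0.01 with a 95% interval of -0.79 to 0.76. Psmb10, the counterpart of Psmb7, had 50.3 to 91.0 in Abi3_WT with a median of 69.9, and 58.7, 99.99, 87.1, 70.02 and 76.2 in Abi3_KO. Its log2 fold change was 0.18 with a 95% interval of -0.23 to 0.60 (DESeq2 adjusted p 0.786), and 0.08 to 0.27 without single animals.

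The balance of inducible to constitutive subunits was read as reads of the inducible gene per 100 reads of the constitutive one in the same library. A 3′ tag library gives reads near the end of a transcript whatever its length, but capture can differ between genes, so these values serve to compare animals. For Psmb8 and Psmb5 they were 26.1 to 102 in Abi3_WT with a median of 34.4, and 17.7, 102, 14.1, 28.9 and 27.9 in Abi3_KO. The highest value of each genotype came from 1 animal, Abi3_WT replicate 5 and Abi3_KO replicate 2. For Psmb9 and Psmb6 they were 6.06 to 18.4 with a median of 9.96, and 10.99, 3.52, 13.2, 12.3 and 7.37. For Psmb10 and Psmb7 they were 50.9 to 82.1 with a median of 75.8, and 57.7, 86.8, 68.9, 66.7 and 69.8. The genotypes overlapped in all 3 pairs.

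The alpha ring, which gates the barrel, held 0 subunits past the adjusted threshold and 0 with an unadjusted DESeq2 p under 0.05. Psma6 had 126 to 232 normalized counts in Abi3_WT with a median of 160.4, and 179, 223, 257, 199 and 166 in Abi3_KO, where only replicate 3 exceeded the Abi3_WT animals. This was a log2 fold change of 0.30 (SE 0.16, DESeq2 adjusted p 0.439), and with reads outside genes as a covariate it was -0.015. Psma2 had 293 to 367 in Abi3_WT with a median of 339.7 and 385, 337, 407, 377 and 315 in Abi3_KO, a log2 fold change of 0.11 (SE 0.099, DESeq2 adjusted p 0.697). The log2 fold changes of the other 5 alpha subunits lay between -0.08 and 0.13.

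The ATPase ring, which unfolds substrates and opens the gate, also held 0 subunits past the adjusted threshold and 0 with an unadjusted DESeq2 p under 0.05. Psmc2 had 220.3 to 291 normalized counts in Abi3_WT with a median of 242, and 253, 279, 298, 297 and 333 in Abi3_KO, 3 of them above all Abi3_WT animals. Its log2 fold change was 0.22 (SE 0.11), with an unadjusted DESeq2 p of 0.0529 and an adjusted p of 0.426. Psmc1, the most abundantly counted subunit, had 556 to 745 in Abi3_WT with a median of 659 and 668, 715, 710, 654 and 692 in Abi3_KO. All 5 Abi3_KO animals lay within the Abi3_WT range, and the log2 fold change was 0.07 with a 95% interval of -0.09 to 0.23 (DESeq2 adjusted p 0.789). The other ATPases lay between -0.10 and 0.10.

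In the lid and base, which bind ubiquitin chains and cut them off, Psmd14 had the lowest p. It encodes the metalloprotease that removes ubiquitin from substrates as they enter. Its normalized count was 135 to 206 in Abi3_WT with a median of 190.5, and 233, 241, 197, 179.6 and 271 in Abi3_KO. Replicates 1, 2 and 5 of Abi3_KO exceeded every Abi3_WT animal, and replicates 3 and 4 lay within the Abi3_WT range. The log2 fold change was 0.29 (SE 0.14), with an unadjusted DESeq2 p of 0.0346 and an adjusted p of 0.361, and with reads outside genes as a covariate it was -0.039. Psmd8, a lid subunit, had 166 to 244 in Abi3_WT with a median of 184 and 242, 211, 257, 182 and 269 in Abi3_KO, a log2 fold change of 0.25 (SE 0.14, DESeq2 adjusted p 0.477). The other 9 genes lay between -0.18 for Psmd12 and 0.21 for Psmd6.

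**Figure D3:**
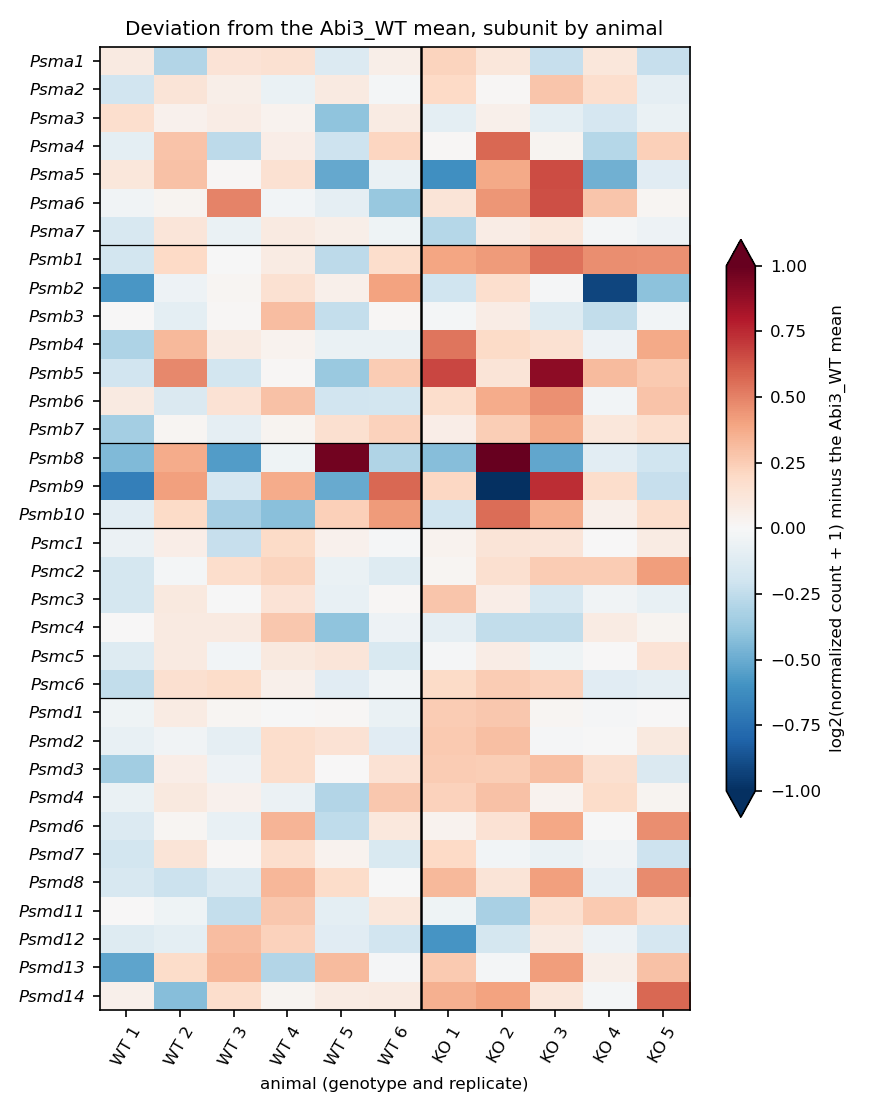
Each of the 34 subunits (rows, grouped by place in the complex) in each of the 11 animals (columns), as log2(normalized count + 1) minus the mean of the Abi3_WT animals, with colours saturating at 1 and -1. Psmb1 is red in all 5 Abi3_KO animals, Abi3_WT replicate 1 is mostly blue, and Psmb8 and Psmb9 have the strongest colours in single animals of both genotypes.

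The small upward shift was not shared evenly by the animals. The highest value among the 11 animals fell in an Abi3_KO animal for 26 of the 34 subunits, and the lowest fell in an Abi3_WT animal for 25. The same was not counted over all genes, so these counts only describe the list. Abi3_KO replicate 3 held the highest value for 10 subunits and replicate 2 for 7, while replicate 4 held none. Abi3_WT replicate 1 was above the 11-animal median for 3 subunits only, against 11 to 21 subunits for the other Abi3_WT animals and 12 to 24 for those of Abi3_KO. Without Abi3_WT replicate 1 the median log2 fold change of the 34 subunits was 0.08 instead of 0.12, and without Abi3_KO replicate 2 it was also 0.08.

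Summed over the 34 subunits, the complex took 2288 ± 166 (SD, n = 6) CPM in Abi3_WT and 2393 ± 84.4 (SD, n = 5) CPM in Abi3_KO. The values were 2057 to 2523 CPM in Abi3_WT with a median of 2307, and 2477, 2384, 2387, 2261 and 2456 CPM in Abi3_KO, all 5 within the Abi3_WT range. The difference of 4.57% was smaller than the SD of the Abi3_WT animals. As summed normalized counts the values were 7765 to 9118 in Abi3_WT and 9263, 9473, 9229, 8539 and 8950 in Abi3_KO, a difference of 7.41%, with 3 Abi3_KO animals above the Abi3_WT range. On that scale the means were 8464 ± 467 (SD, n = 6) and 9091 ± 360 (SD, n = 5), a difference larger than the SD of the Abi3_WT animals. The beta ring alone took 375 ± 40.5 (SD, n = 6) and 416 ± 31.3 (SD, n = 5) CPM, the alpha ring 489.6 ± 29.1 and 492 ± 19.6, the immunoproteasome 28.7 ± 6.34 and 30.8 ± 5.42, the ATPase ring 540.0 ± 46.8 and 550.4 ± 21.7, and the lid and base 855 ± 58.2 and 903.5 ± 42.7. In each of these groups the genotypes overlapped.

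**Figure D4:**
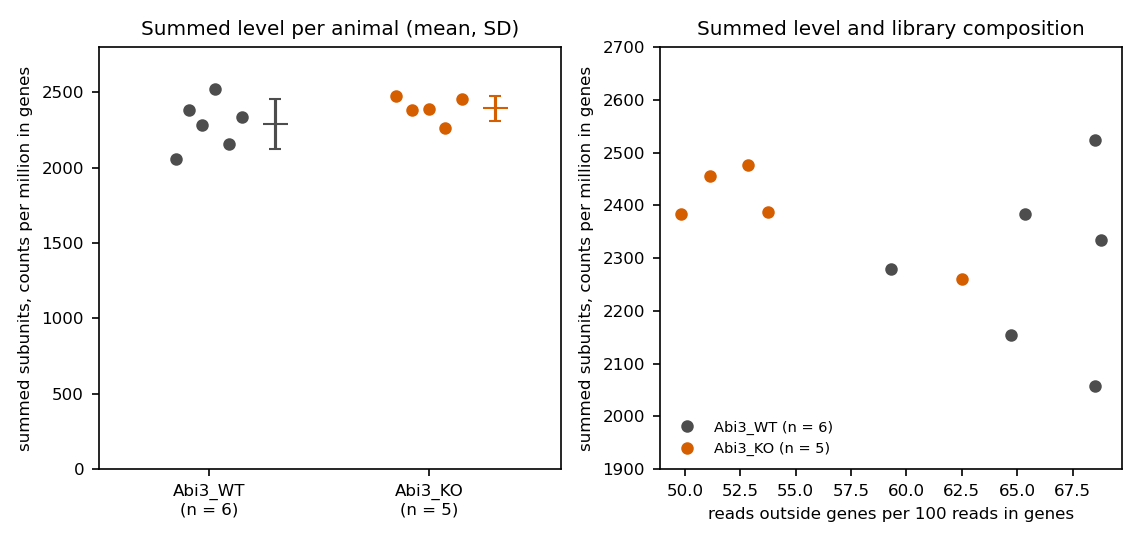
Left, CPM summed over the 34 subunits in each animal (points) with mean and SD (bars), for 6 Abi3_WT and 5 Abi3_KO mice; right, the same sums against reads outside genes per 100 reads in genes, on a y axis that does not start at 0. The Abi3_KO sums of 2261 to 2477 lie within the Abi3_WT range, and 4 of the 5 Abi3_KO libraries lie to the left of all Abi3_WT libraries.

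The shift was read again with library composition in the fit. With reads outside genes as a covariate, the median log2 fold change of the 34 subunits was 0.0027, 17 of the 34 were above 0, and 0 passed the adjusted threshold in DESeq2, with 1 at an unadjusted p under 0.05. Over all genes that fit called 3 genes. The deleted gene, Abi3, was not among them (log2 fold change -5.89, DESeq2 adjusted p 0.417). A lost call in this fit therefore cannot be read as no difference. The log2 fold change of Psmb1 was 0.51 in this fit, while those of Psmb4, Psma6 and Psmd14 were below 0 (-0.087, -0.015 and -0.039). Among the other subunits described above it was 0.60 for Psmb5, 0.14 for Psmc2, 0.12 for Psmd8, -0.74 for Psmb2, -0.66 for Psmb8 and 0.60 for Psmb9. Abi3_KO replicate 4, at 62.5 reads outside genes, had the lowest sum of its group (2261 CPM), while Abi3_WT replicate 4, at 68.5, had the highest of all 11 (2523 CPM) and Abi3_KO replicate 2, the lowest in reads outside genes at 49.8, had 2384 CPM. Since 4 of the 5 Abi3_KO libraries lay outside the Abi3_WT range, genotype and library composition cannot be fully told apart.

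The rest of the ubiquitin-proteasome pathway was followed through 47 further genes in 4 lists, of which 45 were tested. Of these, 1 was called higher (B2m) and 0 lower by DESeq2, against 0.34% of all genes called higher. An unadjusted p under 0.05 was found for 8 in the higher direction, against 4.14% of all genes, and for 0 in the lower, and 36 of the 45 (80.0%) had a log2 fold change above 0, against 49.5%, with a median of 0.16. Among the other subunits and assembly factors (12 genes, 11 tested), 3 had an unadjusted p under 0.05. Pomp encodes the chaperone on which the beta ring matures. It had 274 to 335 normalized counts in Abi3_WT with a median of 298.5, and 363, 411, 344, 329.8 and 428 in Abi3_KO, 4 of them above every Abi3_WT animal. Its log2 fold change was 0.31 (SE 0.10, DESeq2 adjusted p 0.0927), and with the covariate it was 0.06. Psmg4, which encodes an assembly chaperone of the core, had 11.5 to 30.1 in Abi3_WT with a median of 23.6 and 57.7, 51.5, 26.3, 33.9 and 53.5 in Abi3_KO, which is 0.97 on the log2 scale (SE 0.30). DESeq2 gave an unadjusted p of 0.00142 and no adjusted p, or 0.172 with the filter switched off.

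The activators and regulators (10 genes) held 0 genes past the adjusted threshold and 0 with an unadjusted DESeq2 p under 0.05. Nfe2l1, the transcription factor that raises subunit genes, had 449 to 494 normalized counts in Abi3_WT with a median of 465, and 386, 571, 463, 561 and 588 in Abi3_KO. The Abi3_WT animals were close together, while Abi3_KO animals lay both above and below them, and the log2 fold change was 0.13 (SE 0.10, DESeq2 adjusted p 0.653). Without single animals the log2 fold change of Nfe2l1 was 0.08 to 0.22 (DESeq2 adjusted p 0.273 to 0.851). Psme4, an activator that caps the core without ATP, had 195 to 276 in Abi3_WT with a median of 261 and 226, 163, 247, 247 and 174 in Abi3_KO, a log2 fold change of -0.22 (SE 0.14, DESeq2 adjusted p 0.56) that was 0.25 with the covariate. The ubiquitin and substrate delivery list (16 genes) held 4 genes with an unadjusted DESeq2 p under 0.05, all higher, against 4.14% of all genes. The 4 were Ubqln1, Ubqln2, Uchl1 and Ube3a, and none passed the adjusted threshold. Uchl1 had a log2 fold change of 0.24, which was -0.068 with the covariate. Ubqln1 and Ubqln2, shuttle factors that carry ubiquitylated proteins to the proteasome, had log2 fold changes of 0.25 (SE 0.12) and 0.24 (SE 0.11), with DESeq2 adjusted p-values of 0.339 and 0.342, and with the covariate 0.36 and 0.0009. Ubqln1 had 186 to 263 normalized counts in Abi3_WT with a median of 235 and 268, 304, 247, 294 and 265 in Abi3_KO, and Ubqln2 had 325 to 444 with a median of 353 and 471, 439, 505, 378 and 419.9.

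The immune companions, genes that interferon raises together with the immunoproteasome or that load its peptides, numbered 9, of which 8 were tested. B2m, the light chain of MHC class I, had 496 to 790 normalized counts in Abi3_WT with a median of 582, and 693, 943, 777, 739 and 974 in Abi3_KO. Replicates 2 and 5 exceeded every Abi3_WT animal and the other 3 overlapped them. The log2 fold change was 0.43 (SE 0.11) with a DESeq2 adjusted p of 0.0234, which edgeR (0.0695), limma (0.0718) and DESeq2 with its filter switched off (0.0518) put above the threshold, and of the 11 fits without a single animal, 6 kept it past the threshold. With reads outside genes as a covariate B2m was not called, at a log2 fold change of 0.35 and an unadjusted DESeq2 p of 0.10. H2-K1, an MHC class I heavy chain, had 37.0 to 139.8 in Abi3_WT with a median of 72.7 and 109, 115, 84.7, 123 and 147 in Abi3_KO, a log2 fold change of 0.51 (SE 0.27, DESeq2 adjusted p 0.427). Of the 12 microglia markers given above, 0 were called by DESeq2 and 3 had an unadjusted p under 0.05, all higher, against 4.14% of all genes. The part of microglia in these values was not tested.

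The subunit genes lay on 14 chromosomes, so their values are not those of 1 locus. On chromosome 11, where Abi3 itself lies from 95720900 to 95733302, there were 6 of them. The nearest were Psmb3, 1.86 Mb away, and Psmd3, 2.84 Mb away, whose log2 fold changes were -0.07 (SE 0.11) and 0.16 (SE 0.12), and none of the 6 was called by DESeq2. The last 400 bases of the subunits' transcripts, where 3′ reads fall, matched 18 pseudogenes of 12 subunits at 95% identity or more over at least 60 bases. Only 1 of these pseudogenes, Gm6542 of Psma4, averaged over 10 normalized counts (11.1, against 197 for Psma4 in Abi3_WT). Psmb1, Psmb4, Psmb8, Psmb9 and Psmd14 had no such match, while the ends of Psmb2 and Psmd1 matched transcripts of 9 and 111 further genes other than pseudogenes, Psma5 among those of Psmd1, over part of their length, so reads from those stretches could be dropped as aligned to several places and these counts are uncertain.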

How the data were processed

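The authors trimmed 76-base single-end QuantSeq reads with bbduk (BBTools), aligned them with STAR (2.7.3a) to GRCm39 and counted uniquely aligned reads per Ensembl gene, on the sense strand, with HTSeq (0.9.1). Raw counts of each gene in each animal were deposited by the authors, and no collapsing of PCR copies is stated. Names and positions came from GENCODE vM39.

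DESeq2 (1.42.0, R 4.3.3) was fitted with genotype as the only term to all 11 animals, the design stated for the study. Fitting took genes with 10 or more counts over all libraries, reporting those that averaged 1.5 or more normalized counts, and the threshold was a Benjamini-Hochberg adjusted p of 0.05. Independent filtering, aimed at 0.05, gave no adjusted p below a mean count of 70.4, and 6487 genes received one. Each library is a separately labelled replicate, taken as 1 animal. Alternatives were edgeR (4.0.16), limma (3.58.1), TMM library sizes, other count filters, reads outside genes as a covariate, a replicate block and leaving out each animal. The fitting code was checked on simulated counts, and no result given here rests on that check. Transcript ends were compared with BLAST (2.17.0).

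A floor of 3 counts corresponds to 0.545 to 0.937 CPM in these libraries and covers counting error only. The subunits, the pathway and marker lists and the tests were chosen with earlier results of these data known. Values per animal are given for subunits past the threshold, the catalytic and immunoproteasome subunits, the 2 lowest p-values in each group of subunits and in each pathway list, and Psmb2. Males, set tests and protein levels were not analysed here.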

Additional observations from a re-analysis of the deposited data

Results flagged for a closer look

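Among the 94 sets of 4 to 10 animals examined for a value far from the others, 4 held one, and about 4.7 are expected by chance. Psmb8 in Abi3_KO replicate 2 had 45.5 normalized counts, and the nearest Abi3_KO animal had 14.7; in the same animal Psmb9 was at 8.08, the lowest of all 11. Psma3 in Abi3_WT replicate 5 had 221 normalized counts, and the nearest Abi3_WT animal had 299.9. Psmd14 in Abi3_WT replicate 2 had 135, and the nearest had 186. Abi3 in Abi3_KO replicate 2 was at 2.02 normalized counts, from 2 reads, and the other 4 Abi3_KO animals were at 0. Why these animals stood apart was not tested.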

How the results depend on the processing

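The number of genes called over the transcriptome, 95, was 37 with edgeR, 20 with limma, 58 with independent filtering switched off, 3 with reads outside genes as a covariate and 46 to 120 when 1 animal was left out; it was 61 without Abi3_WT replicate 1, 48 without Abi3_WT replicate 6, 61 without Abi3_KO replicate 1, 46 without Abi3_KO replicate 2 and 47 without Abi3_KO replicate 5. The number of subunits called, 1, was 0 with edgeR (4 at an unadjusted p under 0.05), 0 with limma (2) and 0 with the covariate (1), and 1 in all 11 fits that left out an animal. The 3 subunits with an unadjusted p under 0.05 became 1 with the covariate and 2 to 6 when an animal was left out, with 5 without Abi3_WT replicate 3, 6 without Abi3_WT replicate 4 and 5 without Abi3_KO replicate 4. The median log2 fold change of the subunits was 0.0027 with the covariate and 0.08 to 0.15 without single animals. The summed level differed by 0.07 on the log2 scale of CPM, by 0.04 to 0.10 without single animals. Of the pathway lists, 0 genes were called with edgeR, limma, filtering switched off or the covariate, and 0 to 2 without single animals: B2m lost its call without Abi3_WT replicates 3, 5 or 6 or Abi3_KO replicates 2 or 5, and Pomp gained one without Abi3_KO replicate 4 (DESeq2 adjusted p 0.0455). Among the 24 named genes, directions turned with the covariate for Psma6 (-0.015), Psmb4 (-0.087), Psmb8 (-0.66), Psmb9 (0.60), Psmd14 (-0.039) and Psme4 (0.25). Without single animals they turned for Psmb8 (-0.46 to 0.44) and Psmb9 (-0.25 to 0.19). Subunits that were not named turned with the covariate as well, among them Psma4 (0.13 to -0.14), Psmc4 (-0.10 to 0.06), Psmc6 (0.10 to -0.18) and Psmd13 (0.17 to -0.20). The cause of these changes was not tested.

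Replicate numbers come from the titles and mark different animals. Deviations from the group means were not shared by animals of the same number (mean correlation 0.019, -0.010 to 0.064 over 5 pairs), so the numbers do not pair the samples. With the replicate block, 33 genes were called in all, Psmb1 was the 1 subunit called and the 1 with an unadjusted p under 0.05, and Psmb8 and Psmb9 turned to -0.0023 and 0.086. Depth limits Psmb8 and Psmb9, which had as few as 9 and 8 reads in an animal. Of 480 refits of the 24 named genes, 450 kept direction and side of the threshold, with a missing adjusted p counted as not past it. Psmb5, Psmb8, Psmb9, Psmg4 and Abi3 had no adjusted p in the main fit, so for these the main fit gave no side to keep.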

Other observations

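Values outside the rule for named genes, picked after they were seen, are given here without explanation. Tbp, which encodes the TATA-binding protein, lies on the plus strand 137 bases from Psmb1, so the start sites of the pair face away from each other. It had 34.8 to 41.1 normalized counts in Abi3_WT with a median of 37.1, and 59.8, 60.6, 45.4, 57.6 and 38.69 in Abi3_KO, 4 of them above every Abi3_WT animal. Its log2 fold change was 0.48 (SE 0.23) with an unadjusted DESeq2 p of 0.0335, no adjusted p, and 0.529 with the filter switched off. Counting used the strand, so reads of the 2 genes were kept apart. Pdcd2, which follows on the minus strand, had 19.6 to 36.0 in Abi3_WT and 13.6, 15.2, 33.4, 24.8 and 6.83 in Abi3_KO, a log2 fold change of -0.60 (SE 0.36) with an unadjusted DESeq2 p of 0.10. With reads outside genes as a covariate the log2 fold changes of Tbp and Pdcd2 were 0.61 and 0.02.

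In the pathway lists, 2 of the 45 genes tested had groups that did not overlap, with Abi3_KO higher, against 0.539% of all genes. Akirin2, which brings proteasomes into the nucleus, had 126 to 168 normalized counts in Abi3_WT and 209.7, 181, 202, 174 and 197 in Abi3_KO, a log2 fold change of 0.31 (SE 0.12, DESeq2 adjusted p 0.239). Ube3a, a ubiquitin ligase of neurons, had 873 to 945 in Abi3_WT and 974, 1012, 980.0, 955.5 and 1058 in Abi3_KO, a log2 fold change of 0.13 (SE 0.061, DESeq2 adjusted p 0.369). Both differences were smaller with reads outside genes as a covariate, at 0.20 and 0.04.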
